A study of Mus musculus with 15 samples.

Results

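Mature spleen XCR1+ dendritic cells (DCs) from mice given polyI:C were compared with mature spleen XCR1+ DCs that had arisen in untreated mice. The comparison holds 6 of the 15 arrays of the series: 3 of cells taken 18 h after an intraperitoneal injection of 10 µg polyI:C and 3 of cells from untreated mice. All 6 samples were spleen cells sorted as CD11c+ CD317- CD172a- CD117- CCR7+; the remaining 9 arrays held untreated spleen CCR7- CD117+ cells and untreated thymic CCR7- and CCR7+ cells, 3 of each. Strain and age were not given in the sources used here, nor was it stated whether the 3 samples of a group came from separate mice, so the spread behind the p-values, pooled over the 5 groups, may be technical. No CCR7- cells of treated mice were measured. The samples carry XCR1 in their titles, but it was not a marker of the sort.

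XCR1+ DCs take up material from dying cells and present it to CD8 T cells. A fraction of them matures without infection, raises the homing receptor CCR7 and carries self antigen to T cells, a process linked to tolerance. PolyI:C is a synthetic double-stranded RNA that is sensed by TLR3, which these DCs express, and by the cytosolic helicases MDA5 and RIG-I, and it elicits type I interferon in the animal. Interferon-stimulated genes are therefore the textbook response. Most of the account that follows is of genes outside short lists of such targets. Those genes still include known interferon targets, and not all of these are marked as such.

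Levels are log2 RMA signals of Affymetrix whole-genome mouse probe sets, with 1 probe set for a gene, and differences are polyI:C minus untreated on the same log2 scale, given with the standard error (SE) of the limma fit. A gene was called at a limma adjusted p under 0.05 over the 13629 genes tested. By that rule 18.2% of genes were called, 1169 higher (8.58%) and 1317 lower (9.66%), and the median difference over all genes was 0.01. These shares are the background for every count of list members below. At 2-fold or more 535 were higher and 684 lower. Of those rises 33 belonged to 2 lists of interferon targets, so 502 lay outside these lists. The lists are short, with 35 tested genes, and miss some known interferon targets, so the 502 are not free of such targets. At 8-fold or more 60 genes were higher and 16 lower.

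The sorted phenotype was checked first. Ccr7 gave 12.64, 12.78 and 13.18 after polyI:C and 12.53, 12.98 and 13.35 without it, and Kit, which encodes CD117, differed by -0.28 ± 0.34 (SE); neither was called. Xcr1 gave 7.85, 7.75 and 7.01 after polyI:C and 6.16, 9.0 and 8.93 in untreated cells, so the groups overlapped. Sirpa, which encodes CD172a, was not called either, with 0.27 ± 0.20 (SE). The genes of the other sort markers did change: Bst2 (CD317), itself an interferon target, rose by 2.72 ± 0.16 (SE, adjusted p = 5.8e-08) and Itgax (CD11c) fell by 2.70 ± 0.34 (SE, adjusted p = 9e-05). In bulk samples such as these, fewer cells of a type and less RNA per cell cannot be told apart. The untreated CCR7+ arrays also differed more among themselves than those of any other group, with a within-group correlation across probe sets of 0.962 to 0.976 against 0.979 to 0.985 for the polyI:C arrays, and untreated replicate 1 lay furthest from its group mean.

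The interferon targets rose almost without exception and are given here as the yardstick for the rest. Ifit1, an RNA-binding antiviral protein, gave 11.69, 12.60 and 12.93 after polyI:C and 6.22, 6.06 and 6.0 without it, a difference of 6.31 ± 0.26 (SE, adjusted p = 1.5e-09) and a 79.6-fold rise. Ifit3, Ifit2, Oasl2 and Rtp4 followed with differences of 5.80, 5.73, 5.73 and 5.53. All 25 tested members of the type I interferon list were called higher, with a median difference of 3.57, and 9 of 10 interferon-induced GTPases of the GBP and IRG families, with a median of 3.09.

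To show how far the rises outside these lists share a sequence feature with them, the 250 bases before the annotated start site were searched for GAAANNGAAA, the core of the interferon-stimulated response element (ISRE), on both strands (TTTCNNTTTC on the other). RefSeq promoter windows on GRCm38.p6 were matched to 10990 of the 13629 genes tested. The 4 windows below are shown because they span the findings: an interferon target, a chemokine, a transcription factor outside the interferon lists and a receptor subunit that rose as steeply without a match. Capitals mark the matches.
Ifit1, chr19:34640639-34640888, + strand: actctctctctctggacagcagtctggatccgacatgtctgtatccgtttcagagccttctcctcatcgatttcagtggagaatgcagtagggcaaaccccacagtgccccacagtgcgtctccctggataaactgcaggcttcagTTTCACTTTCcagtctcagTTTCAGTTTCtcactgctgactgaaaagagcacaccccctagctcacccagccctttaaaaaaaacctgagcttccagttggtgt
Cxcl10, chr5:92348890-92349139, - strand: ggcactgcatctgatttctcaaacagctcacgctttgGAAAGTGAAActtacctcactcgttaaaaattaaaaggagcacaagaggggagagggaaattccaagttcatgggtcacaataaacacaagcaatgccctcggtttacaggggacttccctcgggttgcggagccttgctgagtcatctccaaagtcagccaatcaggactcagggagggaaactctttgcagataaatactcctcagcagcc
Stat4, chr1:52007990-52008239, + strand: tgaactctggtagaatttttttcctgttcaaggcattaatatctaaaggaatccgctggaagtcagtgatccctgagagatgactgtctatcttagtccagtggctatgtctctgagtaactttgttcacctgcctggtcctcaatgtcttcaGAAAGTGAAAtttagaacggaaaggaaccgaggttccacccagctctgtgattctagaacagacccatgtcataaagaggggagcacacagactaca
Ramp3, chr11:6658283-6658532, + strand: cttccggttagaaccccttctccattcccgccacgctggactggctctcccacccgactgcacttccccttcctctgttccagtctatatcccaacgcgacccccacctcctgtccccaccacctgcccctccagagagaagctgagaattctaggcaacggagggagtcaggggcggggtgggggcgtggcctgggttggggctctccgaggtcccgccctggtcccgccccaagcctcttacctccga
The Ifit1 window held 2 matches, starting 104 and 85 bases before the start site, the Cxcl10 window 1 at 213 bases, and the window of 1 of the 2 annotated starts of Stat4 1 at 97 bases; the other Stat4 window and the Ramp3 window held none. A match was present in 3.46% of all 27025 genes with a window and in 3.23% of those tested. It was present in 13 of 25 members of the interferon lists with a window (52%). Of genes outside those lists that rose at least 8-fold, 6 of 35 held it (17.1%), among them Stat4 and 4 genes that are known interferon targets though not in the lists (Ddx60, Ifi213, Ifit1bl1 and Cxcl10); of those that rose at least 2-fold 30 of 412 (7.28%), and of those that fell at least 2-fold 20 of 546 (3.66%). A match is a description of the letters and no evidence of binding.

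The 15 largest rises outside the interferon lists held both known interferon targets that the lists had missed and genes of other kinds. Among the first were Ddx60, Ddx58 (RIG-I), Isg20, Ifit1bl1, Ifi213, Slfn1 and Slfn4, which rose by 3.90 to 4.90 on the log2 scale; the untreated values of Ddx60, Ifi213 and Slfn1 all lay at or below the limit of 4.39 used to filter dim genes. Among the second the steepest was Plagl1, a zinc-finger transcription factor that restrains the cell cycle. It gave 9.11, 9.51 and 10.33 after polyI:C and 4.59, 4.01 and 4.24 without it, a difference of 5.37 ± 0.47 (SE, adjusted p = 2.5e-06). The other Plagl1 probe set above background was also called, with a difference of 0.69.

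Ramp3, which partners the calcitonin-receptor-like receptor for adrenomedullin, gave 9.96, 10.36 and 10.51 after polyI:C and 5.17, 5.28 and 5.21 without it. The difference was 5.06 ± 0.18 (SE, adjusted p = 5.1e-10), a 33.3-fold rise, and the groups lay far apart. Pla1a, a phospholipase that releases lysophosphatidylserine, gave 10.33, 10.56 and 11.04 against 5.99, 5.76 and 5.73, a 28.1-fold rise (adjusted p = 1.9e-09). Sct, the gut hormone secretin, gave 10.20, 10.54 and 10.76 against 6.16, 5.57 and 5.58, a 26.6-fold rise (adjusted p = 1.4e-09). Slc27a3, a fatty-acid transport protein with acyl-CoA synthetase activity, gave 7.60, 8.32 and 8.55 against 3.75, 3.38 and 3.82; no fold is given because all its untreated values lay below 4.39, the limit used to filter dim genes. The groups do not overlap for these genes, which the choice of genes required.

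**Figure D1:**
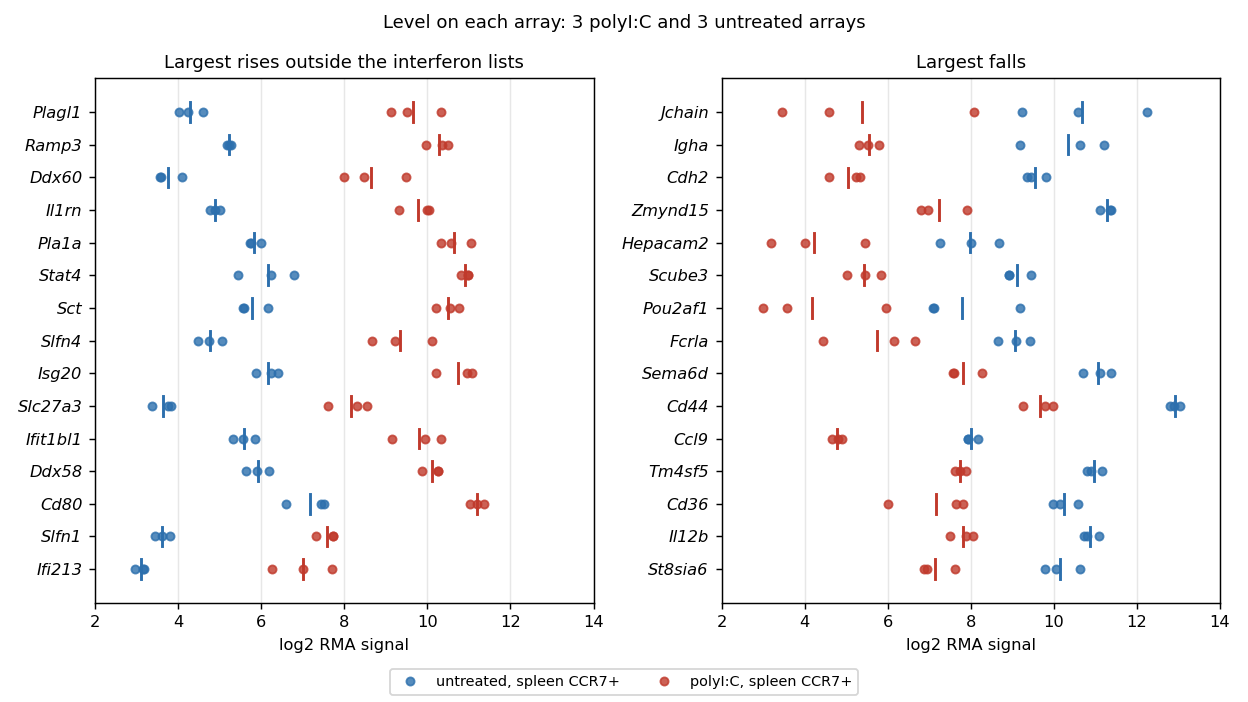
Log2 RMA signal (horizontal axis) on each of the 3 polyI:C arrays (red) and 3 untreated CCR7+ arrays (blue) for the 15 largest rises outside the interferon lists (left) and the 15 largest falls (right); vertical bars are group means. The groups do not overlap for any of these genes, which were chosen for that; Ramp3 lies between 9.96 and 10.51 after polyI:C, and Jchain is spread from 3.47 to 8.08.

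Stat4, the transcription factor that carries IL-12 and type I interferon signals, was the main change among the 23 tested genes of JAK-STAT signalling. It gave 10.80, 10.97 and 10.97 after polyI:C and 5.44, 6.79 and 6.24 without it, a difference of 4.76 ± 0.37 (SE, adjusted p = 7.8e-07). Stat2, which is also in the interferon list, rose by 2.41 ± 0.26 (SE). In all 4 of the 23 rose and 1, Jak1, was called lower, against 8.58% and 9.66% of all genes. The median difference was 0.27. The other rises were Pias1 and Pias2, SUMO ligases that act on STATs. Jak1 lost its call without polyI:C replicate 1 (-0.70), untreated replicate 2 (-0.96) or untreated replicate 3 (-1.08), and Pias1 without polyI:C replicate 1 (0.38), polyI:C replicate 3 (0.48) or untreated replicate 1 (0.35). The count lower in this list was 2 without polyI:C replicate 2 and 3 without untreated replicate 1.

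Secreted signals moved in both directions. Of 19 tested cytokine genes 7 rose and 4 fell, against 8.58% and 9.66% of all genes, with a median difference of 0.09. The steepest rise was Il1rn, the secreted antagonist of the IL-1 receptor, with 9.32, 10.03 and 9.99 after polyI:C against 4.89, 4.76 and 5.01 (adjusted p = 5.5e-10); its 3 probe sets above background differed by 0.44 to 4.89 and 2 were called. Il18bp, which neutralises IL-18, rose by 2.34 ± 0.15 (SE). Il1b itself gave 7.10, 6.31 and 6.56 after polyI:C and 7.69, 8.91 and 8.93 without it, and fell by 1.86 ± 0.42 (SE, adjusted p = 0.0069).

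Ifnb1 gave 6.58, 8.24 and 8.48 after polyI:C and 4.83, 4.74 and 4.94 without it, so interferon-beta message was still above the untreated level 18 h after the injection (difference 2.93 ± 0.35 SE, adjusted p = 4.5e-05). Il6 rose by 2.03 ± 0.47 (SE, adjusted p = 0.0073). Il12b, the p40 subunit shared by IL-12 and IL-23, went the other way. It gave 7.49, 8.04 and 7.89 after polyI:C and 10.73, 10.80 and 11.09 in untreated mature cells, an 8.37-fold fall (-3.07 ± 0.31 SE, adjusted p = 1.4e-05), and its other probe set differed by -2.78. Ebi3, the subunit that pairs with p28 in IL-27, rose by 1.07 ± 0.19 (SE, adjusted p = 0.0014).

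Chemokines divided in the same way. Of 16 tested genes 2 rose and 6 fell, against 8.58% and 9.66% of all genes, with a median of -0.35. The rises were the CXCR3 ligands: Cxcl10 gave 10.72, 12.42 and 12.23 against 8.05, 7.73 and 8.28 (adjusted p = 4.1e-05), and Cxcl11 rose by 2.75 ± 0.37 (SE). Ccl9, a CCR1 ligand, gave 4.81, 4.66 and 4.89 after polyI:C and 8.18, 7.93 and 7.92 without it, a 9.33-fold fall (adjusted p = 4e-09). The mean of its probe sets fell by less, 1.75. Ccl22, the CCR4 ligand that attracts regulatory T cells, gave 10.59, 10.59 and 10.81 against 12.10, 12.56 and 13.0005 (-1.89 ± 0.33 SE, adjusted p = 0.0011).

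Cxcl1 and Ccl6 fell by 2.05 and 1.83, and Ccl17, the other CCR4 ligand, by 1.45, a call that ended in a fit of the 6 compared arrays alone (adjusted p = 0.057). Ccl5 was near the top of the scale in both groups, at 13.64 to 13.74 and 13.32 to 13.53; the groups did not overlap, but the gene was not called. Among 21 tested chemokine and migration receptors none was called higher and 4 were called lower, against 8.58% and 9.66% of all genes. Cxcr4, the CXCL12 receptor, fell by 1.75 ± 0.36 (SE, adjusted p = 0.004), and Nrp2, a receptor for semaphorins that also acts on CCL21-driven migration, by 1.44 ± 0.28 (SE), with 1 of its 3 probe sets called.

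Among genes that DCs use to instruct T cells both rises and falls exceeded their shares over all genes, 8.58% and 9.66%. The list was written with earlier results of these data known, so its shares are a description and no test. Of 20 tested members of the costimulation and checkpoint list 10 were called higher and 5 lower, and the median difference was 0.59. Cd80, a ligand of CD28 and CTLA-4, gave 11.19, 11.03 and 11.37 after polyI:C and 6.60, 7.52 and 7.44 without it, a 16.2-fold rise (4.01 ± 0.23 SE, adjusted p = 3.9e-08); 3 of its 4 probe sets were called higher, over a range of 0.25 to 4.01. Cd86, its partner ligand, gave 12.40, 12.84 and 12.76 against 11.45, 11.35 and 10.93, a 2.69-fold rise (adjusted p = 3.9e-05).

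Some inhibitory ligands in the list rose and Vsir fell. Cd274 (PD-L1) gave 12.05, 12.24 and 11.99 against 9.24, 10.89 and 10.69 (1.82 ± 0.31 SE, adjusted p = 0.00089), Lgals9, a ligand of TIM-3, rose by 2.34 ± 0.34 (SE) and Cd200 by 1.17 ± 0.21 (SE). Tnfsf4 (OX40L) rose by 1.49 ± 0.21 (SE, adjusted p = 0.00024). The falls were led by Cd48, a ligand of CD2 and of CD244, with 8.22, 8.77 and 6.93 against 10.82, 10.58 and 10.11 (adjusted p = 0.00015), followed by Vsir (VISTA) with -1.04 ± 0.18 (SE). Cd40 did not pass the test, at 12.28, 12.22 and 12.47 against 12.38, 12.17 and 12.60. The count of falls was 3 without polyI:C replicate 3 or without untreated replicate 3, and a fit of the 6 compared arrays alone called 6 higher and 2 lower.

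Most genes of the common maturation programme were called in neither direction. Of 23 tested maturation genes 6 were called higher, 3 lower and 14 in neither direction, with a median of 0.18. Over all genes 8.58% were higher and 9.66% lower, so the share lower was near that over all genes. Fscn1, the actin bundler of DC dendrites, differed by 0.03 ± 0.58 (SE), though 2 of its 4 probe sets were called higher, with up to 1.16. The surface marker Cd83 differed by 0.00 ± 0.17 (SE) and Socs2, a brake on cytokine signals, by 0.14 ± 0.28 (SE), and neither passed the test. The 6 rises included Cd80, Cd86, Cd274 and Cd200, which the costimulation list also holds, and the falls Ccl22. Only 1 maturation gene was called lower without polyI:C replicate 2, without polyI:C replicate 3 or without untreated replicate 3.

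**Figure D2:**
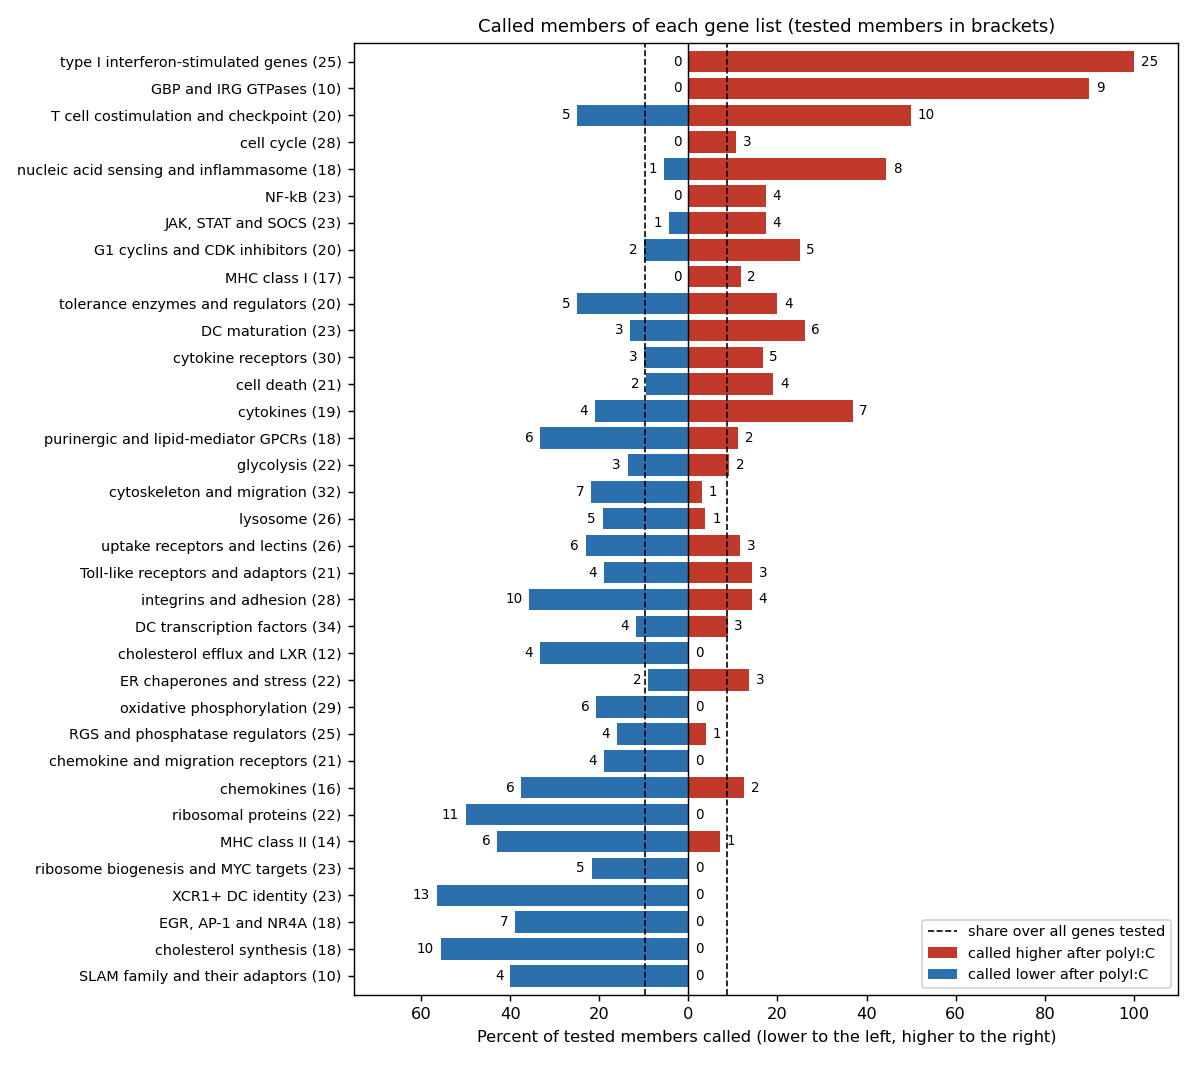
Percent of the tested members of each gene list that were called higher (red, to the right) or lower (blue, to the left) after polyI:C, with the number called beside each bar and the number tested in brackets; lists are ordered by their median log2 difference. Dashed lines mark the shares over all genes tested, 8.58% higher and 9.66% lower. The interferon lists stand at the top with 25 of 25 and 9 of 10 higher, and the XCR1+ DC identity list shows 13 of 23 lower.

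Adhesion genes showed some of the steepest falls. Of 28 tested integrin and adhesion genes 10 were called lower and 4 higher, against 9.66% and 8.58% of all genes, with a median of -0.13. Cd44, the hyaluronan receptor, gave 9.99, 9.77 and 9.25 after polyI:C and 12.79, 13.03 and 12.90 in untreated mature cells, a 9.44-fold fall (-3.24 ± 0.19 SE, adjusted p = 3.9e-08), and all 3 of its probe sets were called lower. The untreated CCR7- spleen cells and both thymic groups averaged 12.94, 12.44 and 12.11, so only the polyI:C group was low among the 5.

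Cdh2 (N-cadherin) gave 5.23, 5.33 and 4.59 after polyI:C and 9.35, 9.45 and 9.80 without it, a 22.4-fold fall (-4.48 ± 0.79 SE, adjusted p = 0.0012). F11r, the junctional adhesion molecule JAM-A, fell by 1.87 ± 0.21 (SE), with another probe set at 0.09. Itgae (CD103) and Cadm1, both known markers of the XCR1+ lineage, fell by 1.34 and 1.06. On the rising side Cdh1 (E-cadherin) gave 4.45, 5.34 and 4.36 against 3.03, 3.21 and 2.79 (adjusted p = 0.00023), untreated values below the limit for dim genes, and the integrin chain Itgav rose by 1.41 ± 0.19 (SE).

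Several of the largest falls concerned genes that were high in both kinds of mature cell of untreated mice. Zmynd15, known as a transcriptional repressor in the male germ line, gave 7.92, 6.96 and 6.81 after polyI:C and 11.36, 11.12 and 11.37 without it (-4.05 ± 0.43 SE, adjusted p = 2e-05), and averaged 12.79 in thymic CCR7+ and 10.95 in thymic CCR7- cells. Sema6d, a transmembrane semaphorin, gave 7.56, 8.27 and 7.58 against 10.70, 11.39 and 11.11 (adjusted p = 8e-06), with 3 of its 4 probe sets called lower, and averaged 11.82 in thymic CCR7+ cells. Tm4sf5, a tetraspanin-like membrane protein, fell 9.27-fold and averaged 12.52 there. Il12b and Cdh2 averaged 11.71 and 11.46 in thymic CCR7+ cells. Scube3, a secreted glycoprotein, fell 12.7-fold, and St8sia6, a sialyltransferase, fell 8.05-fold.

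Other genes averaged higher in the polyI:C group and in thymic CCR7+ cells than in untreated mature spleen cells. Stat4 averaged 10.91 after polyI:C and 9.42 in thymic CCR7+ cells, Pla1a 10.64 and 9.35, Ramp3 10.28 and 8.60, and Cd80 11.20 and 9.73, against 3.60, 6.15, 4.69 and 8.14 in thymic CCR7- cells. The thymic comparison, CCR7+ minus CCR7-, shares no array with the polyI:C comparison. It called 16.8% of genes higher and 20.4% lower. Of the 1169 genes higher after polyI:C 468 were higher in the thymic comparison (40%, and 20.4% of its 2293 rises) and 169 were lower in it (14.5%, and 6.07% of its 2786 falls). Of the 1317 lower after polyI:C 569 were lower in it (43.2%, and 20.4% of its falls) and 235 higher (17.8%, and 10.2% of its rises). The polyI:C changes thus ran the same way as thymic maturation for more genes than ran against it, and Il12b, Cdh2 and Zmynd15 were among those that ran against it.

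**Figure D3:**
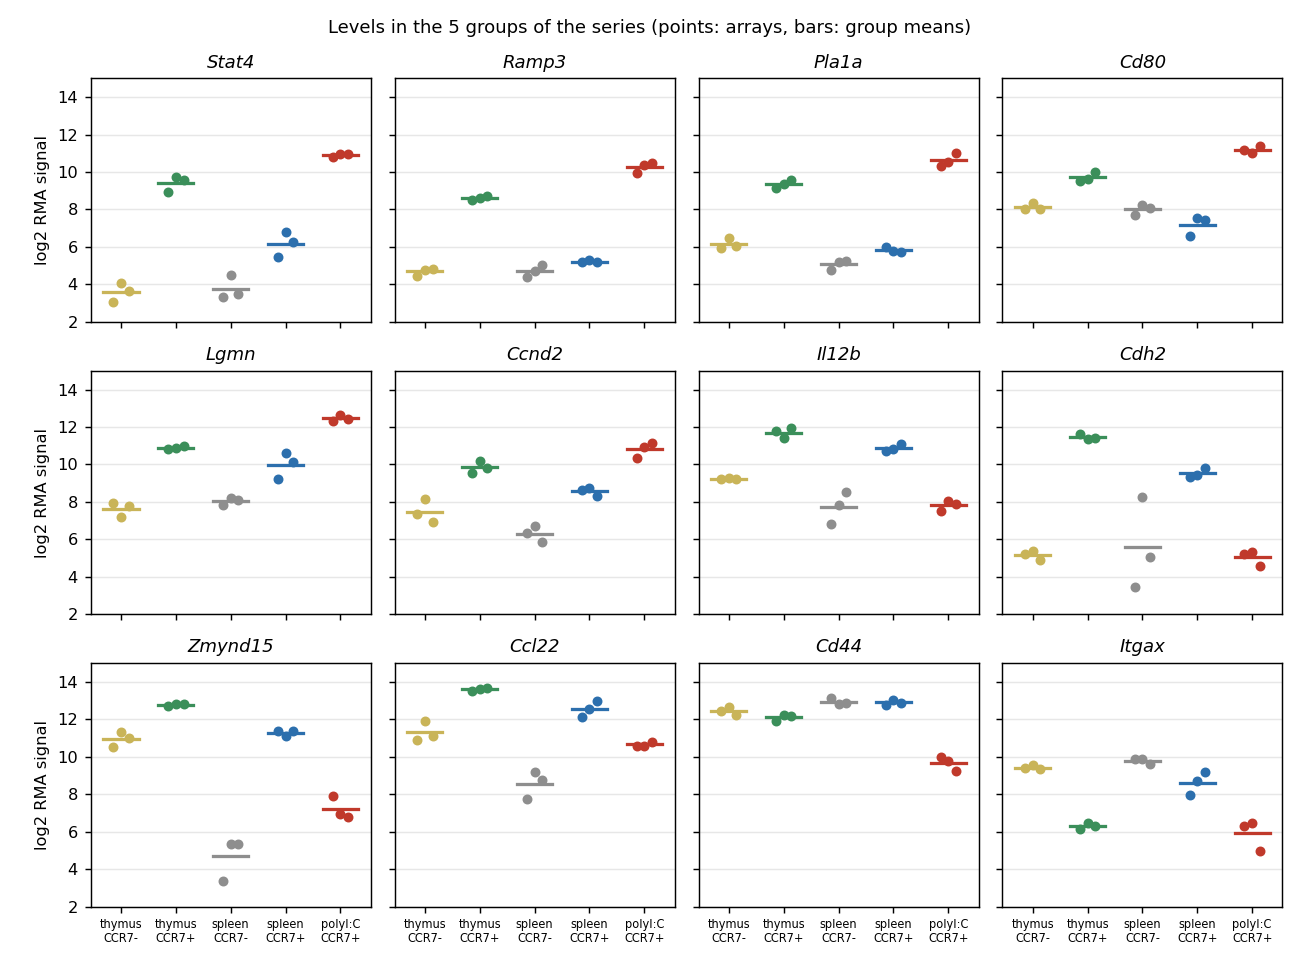
Log2 RMA signal (vertical axis) of 12 genes on all 15 arrays by group, each point an array and each bar a group mean of 3. Stat4, Ramp3, Pla1a and Cd80 are high in thymic CCR7+ and polyI:C cells. Il12b and Cdh2 are high in thymic and untreated spleen CCR7+ cells, and Zmynd15 in these and in thymic CCR7- cells. Cd44 averages 9.67 in the polyI:C group against 12.11 or more in the other 4.

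Of 23 tested genes that mark the XCR1+ lineage 13 were called lower, none higher and 10, Xcr1 among them, in neither direction, and the median difference was -0.76. The shares over all genes were 9.66% lower and 8.58% higher. Hepacam2, an adhesion-like membrane protein, gave 5.46, 4.01 and 3.20 after polyI:C and 7.27, 8.68 and 7.99 without it (-3.76 ± 0.44 SE, adjusted p = 4.2e-05). No fold is given because its polyI:C values of 4.01 and 3.20 lay below 4.39, the limit used to filter dim genes. Cd36, a scavenger receptor for dying cells, gave 7.82, 7.65 and 6.01 against 10.14, 10.58 and 9.98 (adjusted p = 3.9e-05). Cd207 (langerin) fell by 2.02 ± 0.26 (SE) and Wdfy4, needed for cross-presentation of cell-associated antigen, by 1.99 ± 0.30 (SE), the latter with another probe set at 0.16. Their averages in untreated CCR7- spleen cells were 10.50 for Hepacam2, 11.53 for Cd36 and 12.84 for Wdfy4, above both mature groups. The count of falls lay between 9 and 17 when single arrays were left out and was 8 in a fit of the 6 compared arrays alone.

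Of 26 tested uptake receptors 3 were called higher and 6 lower, against 8.58% and 9.66% of all genes. The share higher was thus near that over all genes. Axl, the TAM-family receptor that binds Gas6 on dying cells and restrains interferon and TLR signals, gave 6.85, 7.84 and 7.52 after polyI:C and 3.59, 5.34 and 4.60 without it (2.89 ± 0.43 SE, adjusted p = 0.00034). The mean of its probe sets rose by less, 1.54. Mertk, of the same family, rose by 0.94 ± 0.19 (SE). Mrc2, a collagen receptor, fell by 1.24 ± 0.17 (SE), with another probe set at 0.17.

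Of 14 tested genes of the MHC class II pathway 6 were called lower, 1 higher and 7 in neither direction, with a median of -0.41. Over all genes 9.66% were lower and 8.58% higher. H2-DMa, which helps to load peptide, gave 8.62, 8.96 and 8.98 after polyI:C and 10.54, 10.11 and 10.47 without it (-1.52 ± 0.16 SE, adjusted p = 2.1e-05). Ciita, the master regulator of class II transcription, fell by 1.99 ± 0.34 (SE), H2-Ob and H2-Oa, which inhibit H2-DM, by 2.41 and 1.06, and the chain gene H2-Ab1 by 0.99 ± 0.16 (SE). The Ciita call ended without the _s_at, _x_at and _a_at types of probe set, which can bind several transcripts. The 1 rise was Lgmn, a lysosomal asparaginyl endopeptidase, with 12.33, 12.62 and 12.44 against 9.21, 10.62 and 10.11, a 5.59-fold rise (adjusted p = 3.7e-05).

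Among G1-phase genes 3 cyclins rose and the kinases Cdk4 and Cdk6 fell. Ccne1 (cyclin E1) gave 10.01, 10.85 and 10.87 after polyI:C and 7.18, 7.63 and 7.84 without it, an 8.15-fold rise (3.03 ± 0.29 SE, adjusted p = 7.1e-06). Ccnd2 gave 10.36, 10.91 and 11.15 against 8.63, 8.75 and 8.29 (2.25 ± 0.30 SE, adjusted p = 0.00015), and all 7 of its probe sets were called higher. Ccnd3 rose by 1.88 ± 0.29 (SE), with another probe set at -0.10. Cdk4 fell by 1.52 ± 0.28 (SE) and Cdk6 by 1.54 ± 0.28 (SE), the latter with another probe set at 0.24.

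Of 20 tested G1 cyclin and inhibitor genes 5 were called higher and 2 lower, against 8.58% and 9.66% of all genes. The rises included Cdkn1c, a CDK inhibitor, with 5.59, 6.70 and 6.19 against 4.53, 5.04 and 5.14 (1.26 ± 0.32 SE, adjusted p = 0.014), a call that ended without polyI:C replicate 2 (0.99, adjusted p = 0.0616); without that array the count higher was 2. Of 28 tested genes of the S and M phase programme and its cyclins 3 were called higher, Ccne1 among them, and none lower. That share is near the 8.58% called higher over all genes. The median difference was 0.38, and without untreated replicate 2 the count higher was 6. Beside Ccne1, those called were Cdk1, the mitotic kinase, with 1.34 ± 0.31 (SE, adjusted p = 0.0082), and Rrm2, a ribonucleotide reductase subunit. The remaining 25 of the 28 did not pass the test.

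Of 18 tested enzymes and regulators of cholesterol synthesis 10 were called lower, none higher and 8 in neither direction, with a median of -0.82 against 0.01 over all genes. The shares over all genes were 9.66% lower and 8.58% higher. Mvd, which makes isopentenyl diphosphate, gave 5.72, 5.65 and 5.46 after polyI:C and 6.77, 6.94 and 7.36 without it (-1.41 ± 0.22 SE, adjusted p = 0.00041). Lss, the lanosterol synthase, gave 7.15, 7.32 and 6.81 against 8.57, 8.35 and 8.47 (-1.37 ± 0.19 SE), a call that ended without those types of probe set too. Insig1, the sterol-responsive anchor of SREBP, fell by 1.25 ± 0.23 (SE, adjusted p = 0.0015), and Srebf2, the SREBP that drives the pathway, by 0.92 ± 0.19 (SE). Leaving out single arrays gave 9 to 13 falls and a fit of the 6 compared arrays 6. Only 6 of the 10 called genes had a promoter window. TCACNCCA, a loose form of the sterol regulatory element, was found on either strand in 1 of these 6 and in 4.2% of all genes. It was also in 4 of 35 genes (11.4%) that rose at least 8-fold outside the interferon lists, and in 4.21% of 2-fold falls. With 6 windows, 1 match cannot set the called genes apart from other genes.

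Of 18 tested immediate early genes of the EGR, AP-1 and NR4A families 7 were called lower, none higher and 11 in neither direction, with a median of -0.82. The shares over all genes were 9.66% lower and 8.58% higher. Egr3 gave 6.03, 6.55 and 4.76 after polyI:C and 7.76, 9.12 and 9.04 without it (-2.86 ± 0.40 SE, adjusted p = 0.00022; another probe set differed by -0.02). Egr2 gave 6.51, 5.43 and 5.86 against 7.72, 9.08 and 9.51 (-2.83 ± 0.56 SE, adjusted p = 0.0026), and Egr1 gave 10.48, 9.77 and 10.26 against 11.62, 12.23 and 12.53 (-1.95 ± 0.23 SE, adjusted p = 4.1e-05). The count of falls was 3 without polyI:C replicate 2, untreated replicate 2 or untreated replicate 3, and 4 without polyI:C replicate 3. Egr1 and Jun are also induced by cell handling: of 12 handling-stress genes 5 were called lower and none higher (2 without polyI:C replicate 2, and 3 without polyI:C replicate 1, untreated replicate 2 or untreated replicate 3), and the part of handling in these differences was not tested.

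Nucleic acid sensors and the receptors for nucleotides and lipids gave smaller groups. Of 18 tested sensor and inflammasome genes 8 rose and 1 fell, against 8.58% and 9.66% of all genes. The rises were led by Ifi204 with 3.81 ± 0.32 (SE), a DNA-binding interferon target, followed by Casp4, Trim21 and Trim25. Pycard (ASC), the inflammasome adaptor, fell by 1.36 ± 0.22 (SE, adjusted p = 0.00065), with another probe set at -0.02. Of 18 tested purinergic and lipid-mediator receptors 6 fell and 2 rose, against 9.66% and 8.58% of all genes. Lpar6, a lysophosphatidic acid receptor, gave 6.93, 6.64 and 5.71 against 8.47, 8.90 and 8.90 (adjusted p = 0.00013), Gpr34, a lysophosphatidylserine receptor, fell by 2.61 ± 0.43 (SE), and Gpr65, a proton-sensing receptor, rose by 1.42 ± 0.24 (SE).

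Of 10 tested SLAM-family genes 4 were called lower and none higher, against 9.66% and 8.58% of all genes, with a median of -0.84. The 4 were Cd48, Cd244a, Ly9 and Slamf7, the last lower by 1.09 ± 0.20 (SE). Cd244a, the receptor for CD48, gave 7.36, 7.24 and 4.21 against 8.51, 9.55 and 9.22, and its call ended in a fit of the 6 compared arrays alone (adjusted p = 0.077). The cell death regulator Daxx, also a known interferon target, rose by 2.21 ± 0.25 (SE), and the BH3 protein Bid fell by 1.35 ± 0.29 (SE). The mean of the Bid probe sets fell by less, 0.88. Ribosomal protein genes were slightly lower, 11 of 22 against 9.66% of all genes, with a median of -0.36. This count depended on single arrays: it was 3 without polyI:C replicate 1, 4 without polyI:C replicate 2, 4 without untreated replicate 1, 5 without untreated replicate 2, and fell to 1 when only the compared arrays were fitted.

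The largest falls among the named genes were immunoglobulin-related, and some but not all B-lineage markers were lower too. Jchain, which joins secreted IgA and IgM, gave 4.59, 8.08 and 3.47 after polyI:C and 10.57, 12.24 and 9.24 without it (-5.31 ± 1.45 SE, adjusted p = 0.02). Replicate 2 was the highest array in both groups. The Jchain call ended without polyI:C replicate 1 (-4.91, adjusted p = 0.0691), polyI:C replicate 3 (-4.35, adjusted p = 0.0946) or untreated replicate 2 (-4.53, adjusted p = 0.0772).

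Igha, the IgA heavy chain, gave 5.31, 5.80 and 5.52 against 9.17, 11.21 and 10.63 (-4.79 ± 0.85 SE, adjusted p = 0.0013), and all 3 of its probe sets were called lower. Pou2af1, a B-cell coactivator, fell by 3.61 ± 0.94 (SE, adjusted p = 0.015), a call that ended without polyI:C replicate 1 (-3.31, adjusted p = 0.0563), polyI:C replicate 3 (-3.02, adjusted p = 0.073) or untreated replicate 2 (-2.92, adjusted p = 0.0648). Fcrla, an Fc-receptor-like protein of B cells, fell by 3.31 ± 0.52 (SE), and averaged 9.80 in untreated CCR7- spleen cells and 9.33 in thymic CCR7- cells.

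Of 10 tested B-cell markers 5 were called lower and none higher, against 9.66% and 8.58% of all genes, with a median of -1.08. The lowest, at -3.31, was Fcrla, which was also high in untreated CCR7- cells and so may not stand for B cells here. The summed signal of the 10 was 10.04 to 10.59 after polyI:C and 11.27 to 12.58 without it, on the log2 scale, with untreated replicate 2 the highest for Cd79b at 9.44. The defining factor Pax5 was near the limit of 4.39 used to filter dim genes, at 4.47 to 4.65 and 4.48 to 4.86, and Ms4a1 (CD20) was not called. Leaving out any polyI:C array left 3 B-cell markers called lower. Of 7 plasma-cell markers 2 were lower (Jchain, Mzb1) and 2 higher (Sdc1, Irf4), with summed signals of 10.995 to 11.59 and 11.27 to 12.87. The count lower was 0 without polyI:C replicate 3 or untreated replicate 2 and 1 without polyI:C replicate 1, and the count higher was 1 without polyI:C replicate 1. Irf4 is also in the list of conventional type 2 DC markers. Of 9 tested there 1 was higher and 1 lower, near the shares over all genes, with summed signals of 10.86 to 10.99 after polyI:C and 9.86 to 10.69 without it. Whether B-lineage RNA has a part in the falls of Jchain, Igha and Pou2af1 was not tested.

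**Figure D4:**
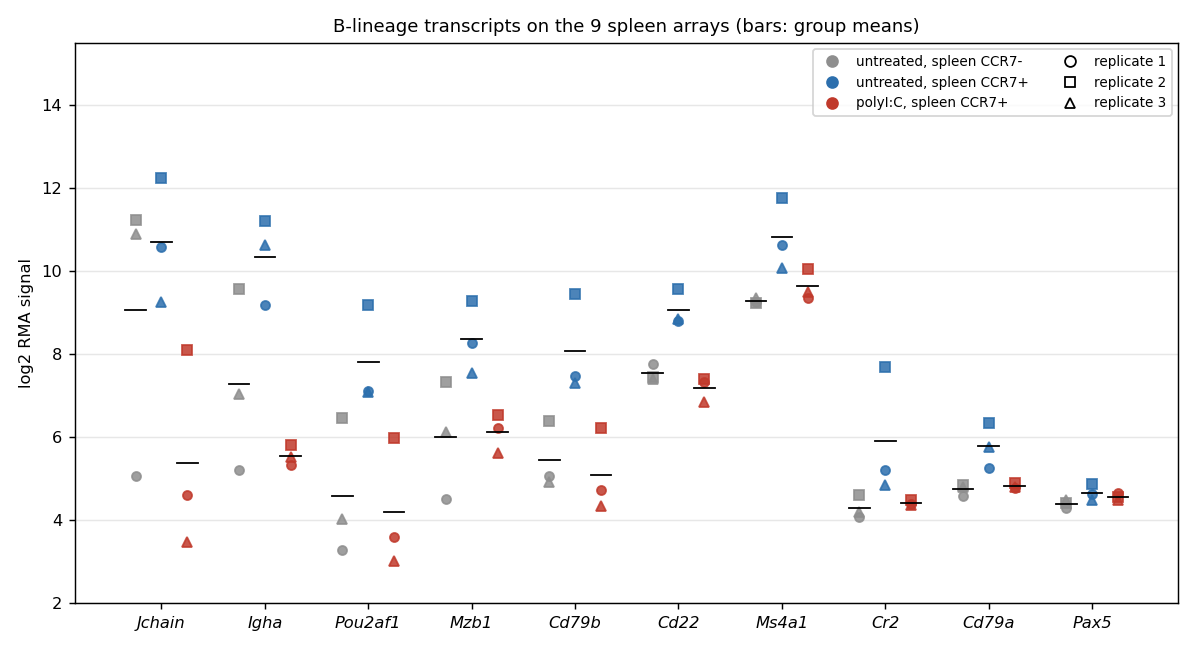
Log2 RMA signal (vertical axis) of 10 B-lineage transcripts on the 9 spleen arrays, coloured by group and with a symbol for each replicate; black bars are group means. Untreated replicate 2 is the highest CCR7+ array for Jchain (12.24), Igha (11.21) and Cd79b (9.44), and Pax5 stays between 4.47 and 4.86 on the 6 CCR7+ arrays. The plasma-cell markers Sdc1 and Irf4, which were called higher, are not drawn.

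Against the 18.2% of all genes called, 6 of 12 macrophage, 4 of 11 plasmacytoid DC and 3 of 8 monocyte markers were called. None of 10 T-cell and none of 8 erythroid and platelet markers was called in either direction at an adjusted p under 0.05. Of 12 macrophage markers Spic and Mertk were higher and Mrc1, Cd163, Vcam1 and Hmox1 lower, with summed signals of 11.51 to 12.04 after polyI:C and 11.91 to 12.53 without it. Spic, a PU.1-related factor of red pulp macrophages, gave 9.65, 9.73 and 9.22 against 6.19, 6.78 and 6.69, a 7.88-fold rise (adjusted p = 2.8e-06). The count of macrophage markers lower was 1 without polyI:C replicate 2, polyI:C replicate 3 or untreated replicate 2.

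Of 10 NK-cell markers Klrk1 (NKG2D) rose 4.54-fold, and Gzmb (granzyme B) was called higher with 7.47, 6.04 and 5.34 against 4.32, 3.86 and 4.32, all untreated values lying below the limit for dim genes; the summed signals overlapped, at 9.35 to 10.83 and 8.71 to 10.33. Of 8 monocyte markers Ms4a4c, a known interferon target, rose by 3.11 ± 0.53 (SE), Lyz2 fell by 2.44 ± 0.28 (SE) and Cd14 was called lower; the summed signals were 12.13 to 12.98 after polyI:C and 10.30 to 11.24 without it. The count of monocyte markers lower was 1 without polyI:C replicate 2, polyI:C replicate 3, untreated replicate 2 or untreated replicate 3. Of 11 plasmacytoid DC markers Bst2 and Spib were higher and Ly6d and Cd300c2 lower, while Siglech differed by -0.07 ± 0.17 (SE); the summed signals were 12.77 to 13.19 and 11.36 to 12.11. The count of plasmacytoid DC markers lower was 1 without polyI:C replicate 1, polyI:C replicate 3, untreated replicate 1 or untreated replicate 2, and the count higher was 1 without polyI:C replicate 3 or untreated replicate 1. Spib gave 11.45, 11.85 and 12.04 against 9.31, 10.20 and 9.63, a difference of 2.07; its call ended without polyI:C replicate 3 (1.94, adjusted p = 0.062) or untreated replicate 1 (1.86, adjusted p = 0.0508). The part of such cells in the results was not tested.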

How the data were processed

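The deposited values were log2 signals that came from RMA in affy, per the submitters' processing notes; no source used here gave the versions or said which arrays were normalised together. RMA gives no detection calls. RNA was amplified in 2 rounds before labelling, per the labels' protocols. Of 45101 probe sets 34958 carried 1 gene symbol in GEO's platform annotation, 932 several and 9211 none. A gene was represented by the probe set brightest on average across all 15 arrays, and tested where more than 4.39 (the 40th percentile of all values) on at least 3 arrays. Differences of other probe sets are given for some genes only. The design was a limma model (limma 3.58.1, R 4.3.3) of 5 group means over all 15 arrays, which share 1 estimate of the spread, with eBayes and Benjamini-Hochberg adjustment over 13629 genes. The model was tested on simulated data. With 3 arrays a group the number of arrays limits the precision, and an exact permutation test of a single gene could not go below 0.1.

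Genes were named by a rule: the 5 largest rises in the interferon lists, the 15 largest rises outside them and the 15 largest falls, each called, at least 2-fold and not overlapping between groups, without predicted genes; up to 4 called rises and 4 falls of each list; Ifit1, Stat4 and the sort markers. Genes named outside this rule were chosen after their values were seen: Cadm1, Ccl5, Ccl17, Cd40, Cd83, Ebi3, F11r, Fscn1, H2-Ab1, H2-Oa, Itgae, Mrc2, Socs2, Srebf2, Vcam1, Wdfy4 and the markers of other cell types. The comparison, its genes and the lists were chosen with earlier results of these data known. The list entry for RIG-I did not match by name, so Ddx58 came out among the rises outside the lists. Promoters are those of RefSeq on GRCm38.p6. Alternatives tried were other filters, probe-set rules, normalisations, variance models, fewer arrays, a test against a log2 difference of 1, the replicate number as a block and each of the 6 arrays left out.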

Additional observations from a re-analysis of the deposited data

How the results depend on the processing

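The counts of 1169 genes higher and 1317 lower stayed within 1.5 times under most alternatives. They were 534 and 547 in a fit of the 6 compared arrays alone, where fewer arrays estimate the spread. The untreated ones among them also varied most. Root-mean-square deviations from the group mean were 0.311 to 0.378 untreated and 0.230 to 0.285 after polyI:C, against 0.174 to 0.242 in the other groups. Pooling over the 5 groups may thus understate the SEs of this comparison, and the part of each in the lower counts was not tested. The counts were 141 and 52 in a test against a log2 difference of 1, which asks for more than a difference from 0. Leaving out 1 array in turn gave 883 to 1210 higher and 817 to 1547 lower; the lowest count of falls was that without polyI:C replicate 3 and the highest that without untreated replicate 1. Of 199 named genes with a call 64 lost it in the fit of 6 arrays, 38 in a fit of the 9 spleen arrays and 23 to 44 when single arrays were left out. The difference changed sign for Bmf without _s_at, _x_at and _a_at probe sets (0.00398), for Ddit3 with the mean of probe sets (-0.055), for Il10rb with the mean of probe sets (-0.013) and with the probe set of largest variance (-0.69), and for Pias1 with the probe set of largest variance (-0.15); the cause was not tested. With the replicate number as a block 1198 genes were higher and 1387 lower, and 3 named calls were lost. Deviations of same-numbered arrays correlated at 0.0015, 0.635 and 0.141, and the main fit did not pair the samples by number. Array medians did follow the numbers. In replicates 1, 2 and 3 they were 4.996, 4.905 and 4.948 untreated and 4.980, 4.899 and 4.947 after polyI:C. Whether same-numbered arrays shared a processing step was not tested. Of the untreated arrays, replicate 2 correlated best with its own number and replicates 1 and 3 did not. RMA gives no detection calls, so signal over background could not be used to limit the calls.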
